A study of Mus musculus with 12 samples.

Results

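The comparison described here sets dividing cells of the intra-aortic haematopoietic clusters at E11.5, counted in embryonic days, against the same sorted population 1 day earlier, at E10.5. Its members are the genes that the authors' test could be run on in the S/G2/M age table, 12768 of the 24138 genes listed. The clusters are groups of blood cells on the wall of the aorta, in the region of the mouse embryo known as the aorta-gonad-mesonephros (AGM). Both groups came from C57BL/6 embryos of the genotype Fucci Green, in which the green marker mAG is seen in the S, G2 and M phases of the cell cycle. Cells were sorted from the AGM as negative for SSEA-1 and positive for CD31, CD117 and mAG, and each age had 3 samples, 6 of the 12 in the series. The other 6 are G1 cells of the same ages, sorted in the same way from Fucci Red embryos by the red marker mKO2. The series design gives paired-end sequencing in triplicate, and separate litters or pooled embryos are not mentioned in the labels for the 3 samples at either age. Age is therefore compared here within 1 genotype, while the G1 cells shown beside it differ in both phase and reporter line.

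Intra-aortic clusters bud from haemogenic endothelium, specialised cells of the aortic wall that change from an endothelial to a blood fate under the control of Runx1 and Gata2. Cluster cells carry both endothelial surface proteins such as CD31 and blood progenitor proteins such as Kit (CD117), and the first haematopoietic stem cells that can repopulate an adult are found in the AGM at these ages. The surrounding tissue holds mesenchyme, nerve and kidney precursors, embryonic macrophages and circulating primitive red cells.

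Expression is given in FPKM, the number of sequenced fragments scaled to the length of the transcript and the size of the library. The authors' table holds 1 FPKM value for each age, so no spread between the 3 samples can be shown, and the depth of sequencing behind it is unknown. The words rose and fell are kept for genes whose q-value, the p-value adjusted over all tested genes, is under 0.05 in the authors' deposited table. By that rule 520 of 12768 tested genes changed in the authors' deposited table, 4.07 percent. Of these, 273 rose at E11.5 (2.14 percent of those tested) and 247 fell (1.93 percent). Every count of called list or family members below stands beside these 2 shares. The smallest p-value in the authors' deposited table, 5e-05, is shared by 207 genes, so q-values rank the strongest calls poorly and sizes are given by fold change. Changes were large: the median log2 fold change was 1.77 over the 256 risen genes above 0 FPKM at both ages and -2.06 over the 203 such fallen genes. The smallest called change was 0.96 on the log2 scale, and 94 risen and 112 fallen genes moved by at least 4-fold. Over the 12596 tested genes above 0 at both ages the median was 0.03. Another 17 risen genes were listed at 0 at E10.5 and 44 fallen genes at 0 at E11.5, and these have no fold change. Their p-values do not follow level. Il1b at 1.71 FPKM, Cd7 at 2.69 and Tnnc2 at 23.98, each at 0 at the other age, all have 5e-05 in the authors' deposited table.

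**Figure D1:**
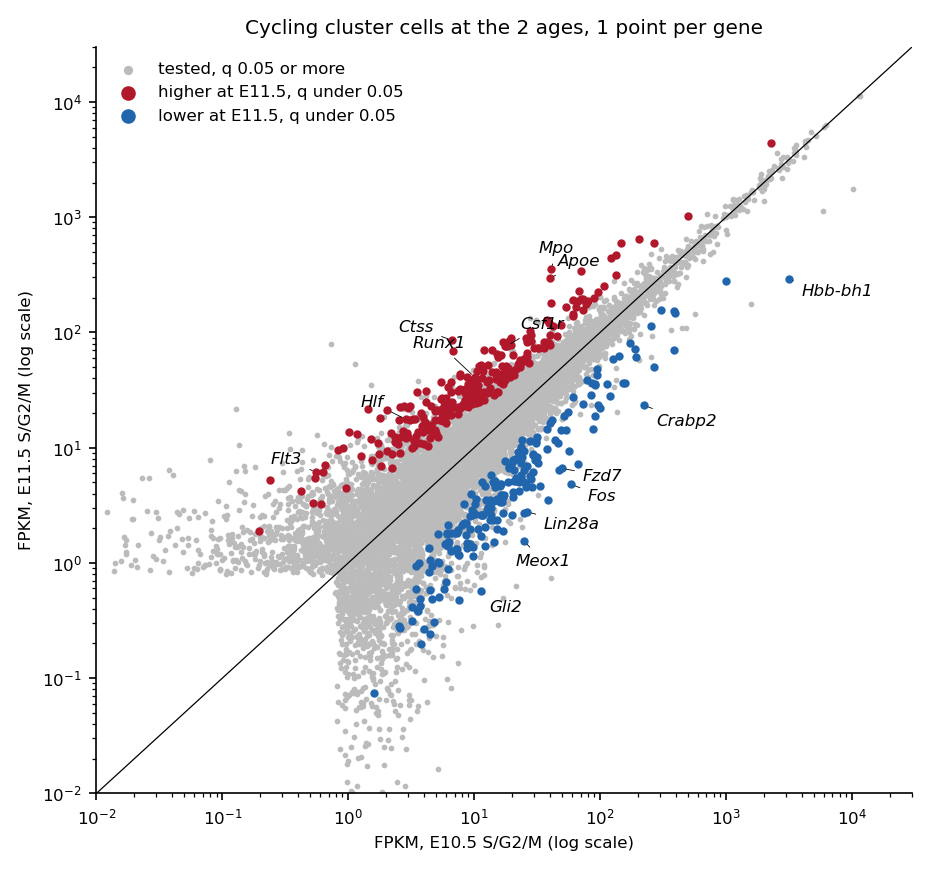
Each point is a tested gene, with its FPKM at E10.5 on the horizontal and at E11.5 on the vertical log axis, and the line marks equal levels. The 12589 genes at 0.01 FPKM or more at both ages are drawn, and labels mark risen blood genes such as Flt3, Ctss and Mpo and fallen genes such as Hbb-bh1, Crabp2 and Meox1.

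The sort was checked on its own markers. Pecam1, which encodes CD31, was at 29.7 FPKM at E10.5 and 73.2 at E11.5, and Kit was at 12.6 and 30.003, so both sort genes were present at both ages and both rose. Fut4, an enzyme that makes the SSEA-1 antigen the cells were selected to lack, was at 1.86 and 4.17 FPKM and was not called. All 8 markers of cluster cells were detected at both ages, and their summed level was 258 FPKM at E10.5 and 595 at E11.5. Markers of other cell types also moved. The summed level of 5 macrophage markers, none of them at 0, was 60.1 FPKM at E10.5 and 213 at E11.5. That of 6 red cell markers was 3717 and 400, of which the globin gene Hbb-bh1 alone gave 3156 and 289. The sum of 5 mesenchymal markers was 87.8 and 26.8. The 4 neural markers summed to 48.9 and 42.1 FPKM. Among granulocyte markers S100a8 and S100a9 were listed at 0 at both ages, as was the lymphocyte marker Cd3e. In sorted bulk samples, fewer cells of a type and less RNA per cell cannot be told apart. Xist, the X inactivation RNA of female cells, rose from 13.5 to 33.01 FPKM. The 4 Y-linked genes Ddx3y, Eif2s3y, Kdm5d and Uty were each lower at E11.5 without being called, for example Ddx3y at 4.04 and 2.25 FPKM, and the part of embryo sex in the results was not tested.

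Genes that regulate haematopoietic stem and progenitor cells rose more often than they fell. Of 40 tested, 14 rose, 3 fell and 23 did not pass, with 32 higher at E11.5, where 2.14 percent of all tested genes rose and 1.93 percent fell. The list had a median log2 change of 1.24, against 0.03 over all tested genes. The receptor Flt3, which marks multipotent progenitors, had the largest rise of the list, from 0.557 to 6.12 FPKM, or 10.98-fold. Its E10.5 level was under 1 FPKM, and on a log2 scale with 1 FPKM added the change was 2.19 in place of 3.46. Hlf, a transcription factor of stem cells, rose 6.11-fold, from 2.88 to 17.6 FPKM.

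Several transcription factors of the list rose as well. Runx1, required for cluster cells to arise from endothelium, rose from 10.1 to 40.9 FPKM (4.05-fold). Myb, which definitive but not primitive blood formation needs, rose from 7.62 to 31.9 FPKM, and Gata2 from 7.67 to 22.7. Ikzf1, which opens lymphoid programmes, rose from 13.9 to 69.9 FPKM, the highest level at E11.5 among these 4. Bcl11a, a lymphoid factor and repressor of embryonic globins, rose 4.36-fold to 45.98 FPKM. Smaller rises were those of Lmo2, a bridging partner of the Gata2 complex, from 60.6 to 144 FPKM, and of the ETS factor Erg, from 26.1 to 61.6. Cd34, a surface protein of endothelium and progenitors, rose from 88.7 to 199 FPKM. Adgrg1, an adhesion receptor of cluster cells, rose from 26.3 to 82.2 FPKM. The de novo DNA methyltransferase Dnmt3b rose 3.13-fold, from 20.3 to 63.4 FPKM.

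Among the falls in the list, Hoxa10 fell from 16.9 to 3.76 FPKM and Mllt3, which helps human stem cells to self-renew, from 18.9 to 6.64. Several genes that stage cluster cells did not pass. Ptprc, which encodes the pan-leukocyte protein CD45, was at 4.17 FPKM at E10.5 and 19.9 at E11.5, and the authors' deposited table gives it a q of 0.505. Spi1, the master factor of myeloid cells, was at 29.3 and 82.2 FPKM, and its q in the authors' deposited table was 0.0536. For the endothelial cadherin Cdh5, at 101 and 201 FPKM, the authors' deposited table gives a q of 0.0823. Itga2b (CD41), an early marker of blood commitment, was at 4.28 and 7.61 FPKM. Macrophage markers, of which 13 of 29 tested rose at the same age, are given below, and their part in the rises of the regulators was not tested.

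The gene Runx1 spans chr16:92601466-92826074 in the authors' coordinates (mm10). It has a pair of promoters, and the upstream one, at chr16:92826025-92826324 on the minus strand of GRCm38.p6 (RefSeq), is shown because it holds the letters TGTGGT, which Runx proteins bind. Capitals mark that motif, found on the opposite strand at bases 279 and 287 of 300.
Runx1: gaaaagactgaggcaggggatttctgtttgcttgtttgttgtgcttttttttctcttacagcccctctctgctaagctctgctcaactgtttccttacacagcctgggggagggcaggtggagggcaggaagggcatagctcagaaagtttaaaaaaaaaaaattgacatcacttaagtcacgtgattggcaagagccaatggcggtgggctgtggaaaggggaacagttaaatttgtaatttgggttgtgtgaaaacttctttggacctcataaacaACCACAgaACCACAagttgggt
The other Runx1 promoter, at chr16:92697280-92697579, held 0 copies in its window. The 6 letters occurred in 16.0 percent of 307 promoters of risen genes, 10.1 percent of 207 promoters of fallen genes and 12.4 percent of 12450 promoters of tested genes. They occurred in 6.25 percent of 48 promoters of the stem and progenitor list and 16.8 percent of all 32851 promoters in the table, so such a match is common and describes letters, not binding.

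Of 41 tested endothelial and arterial genes 32 were higher at E11.5, 4 rose and none fell, with a median log2 fold change of 0.72. Robo4, an endothelial guidance receptor, rose from 9.21 to 33.3 FPKM. Tie1, an orphan receptor of the angiopoietin system, rose from 11.02 to 28.2 FPKM, and Flt1, a VEGF receptor, from 10.8 to 24.7. Pecam1 completes the list of risen members. Outside the list, Esm1, a secreted product of activated endothelium, rose 10.9-fold, from 0.910 to 9.94 FPKM, a log2 change of 3.45 that was 2.52 with 1 FPKM added. Basement membrane chains, a group chosen after their values were seen, gave rises in Col4a1 (17.1 to 35.4 FPKM), Col4a2 (23.8 to 55.4) and the laminin chain Lama4 (9.90 to 26.7). The embryonic laminin chain Lama1 fell from 8.04 to 2.14 FPKM, and 5 of the 9 tested chains were not called.

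Macrophage and monocyte markers gave the highest median of any list. All 29 tested were higher at E11.5, 13 rose, none fell, and the median log2 fold change was 2.06 (a factor of 4 is 2 on this scale). Summed over the 31 listed genes the level was 714 FPKM at E10.5 and 2503 at E11.5. Ctss, a lysosomal protease of antigen-presenting cells, rose most, from 6.70 to 85.5 FPKM (12.8-fold). Csf1r, the receptor on which macrophages depend, rose from 18.4 to 76.5 FPKM, Adgre1, a surface protein of mature macrophages, from 2.85 to 12.04, and the mannose receptor Mrc1 from 7.77 to 43.8. The chemokine receptor Cx3cr1 rose from 12.997 to 38.6 FPKM and the factor Maf from 8.77 to 41.01. The most abundant members were the adaptors Tyrobp, at 134 and 474 FPKM, and Fcer1g, at 121 and 441, and both rose. Lyz2, Laptm5, Ly86, Pf4 and Dab2 rose as well, Laptm5 from 70.9 to 343 FPKM. Outside the list, Apoe, a lipid carrier made by macrophages among other cells, rose 7.36-fold, from 39.95 to 294 FPKM.

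Lysosomal genes were also higher at E11.5. Of 35 tested, 9 rose, none fell and 33 were higher at E11.5, and the median log2 fold change was 0.82. After Ctss and Laptm5, which both lists hold, the largest rise was that of the protease Lgmn, from 11.6 to 40.4 FPKM. The mannosidase Man2b1 rose from 10.7 to 34.7 FPKM, and Grn, whose product progranulin controls lysosomal function, from 28.1 to 83.9. Gusb, Asah1, Ctsc and Ctsd, all acid hydrolases of the lumen, rose between 2.30-fold (Ctsd) and 2.84-fold (Gusb).

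Promoters of 4 of these genes are shown because the genes rose together and each window holds GAGGAA, the core bound by Spi1, on one strand or the other. They were chosen for the match after the values were seen. Each runs from 250 bases before to 50 after the transcript start in GRCm38.p6 (RefSeq), with the motif in capitals. Ctss lies at chr3:95526536-95526835 with matches at bases 87 and 251, Mrc1 at chr2:14229164-14229463 with matches at 71, 84 and 216, Laptm5 at chr4:130913066-130913365 with a match at 213, and Grn at chr11:102430257-102430556 with matches at 75 and 87, all on the plus strand.
Ctss: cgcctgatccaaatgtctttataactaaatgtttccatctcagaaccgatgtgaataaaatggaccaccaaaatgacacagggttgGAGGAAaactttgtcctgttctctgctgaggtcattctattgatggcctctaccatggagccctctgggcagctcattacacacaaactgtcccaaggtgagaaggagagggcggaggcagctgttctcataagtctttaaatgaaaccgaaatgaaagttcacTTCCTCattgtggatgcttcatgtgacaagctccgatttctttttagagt
Mrc1: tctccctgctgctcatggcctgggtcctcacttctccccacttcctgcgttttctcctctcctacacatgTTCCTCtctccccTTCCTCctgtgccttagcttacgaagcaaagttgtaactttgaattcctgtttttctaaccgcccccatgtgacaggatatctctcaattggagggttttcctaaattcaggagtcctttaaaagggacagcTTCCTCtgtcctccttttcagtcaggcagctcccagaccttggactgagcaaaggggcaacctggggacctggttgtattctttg
Laptm5: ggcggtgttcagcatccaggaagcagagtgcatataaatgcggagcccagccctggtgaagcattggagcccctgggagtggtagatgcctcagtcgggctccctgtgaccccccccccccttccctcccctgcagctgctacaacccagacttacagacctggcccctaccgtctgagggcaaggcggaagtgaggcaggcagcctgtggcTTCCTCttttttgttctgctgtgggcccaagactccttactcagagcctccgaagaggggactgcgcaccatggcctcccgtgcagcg
Grn: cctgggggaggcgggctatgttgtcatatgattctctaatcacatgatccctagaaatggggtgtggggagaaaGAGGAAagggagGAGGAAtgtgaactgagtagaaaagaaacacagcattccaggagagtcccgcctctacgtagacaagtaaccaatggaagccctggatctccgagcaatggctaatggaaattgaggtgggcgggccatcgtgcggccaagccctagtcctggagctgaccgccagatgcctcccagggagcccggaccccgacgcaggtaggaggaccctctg
The core was found in 13 of 25 promoters of the macrophage list (52 percent), 14 of 30 of the lysosomal list (46.7 percent) and 13 of 48 of the stem and progenitor list (27.1 percent). It was found in 34.5 percent of the promoters of risen genes, 29.0 percent of those of fallen genes, 26.9 percent of those of tested genes and 28.3 percent of all 32851 promoters in the table. Another scanned motif, the E-box CAGCTG, was in 44 percent of macrophage-list promoters and 30 percent of lysosomal-list promoters. Among promoters of tested genes its share was 15.1 percent, so an excess in these lists is not particular to the Spi1 core. By symbol, 219 of the 273 risen and 164 of the 247 fallen genes could be matched, and the shares are descriptions.

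**Figure D2:**
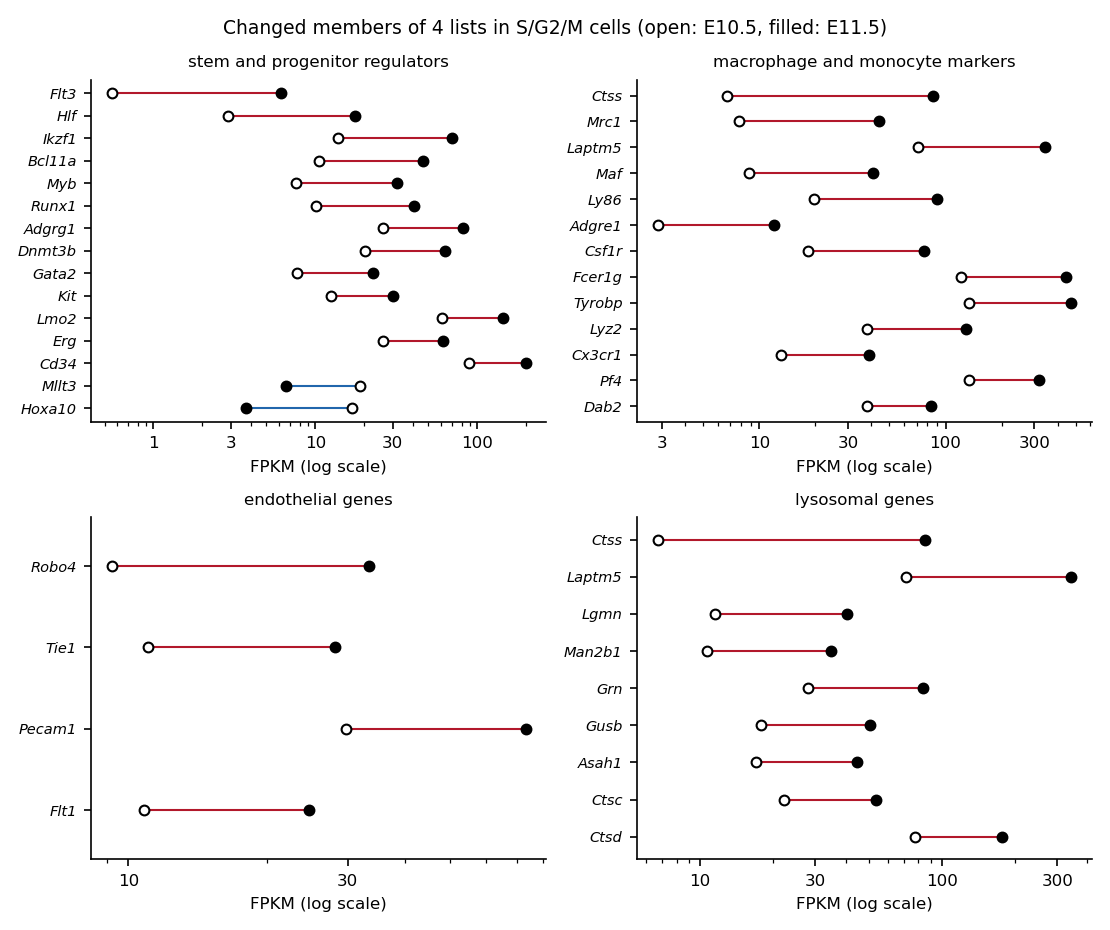
Each line joins a gene's FPKM at E10.5 (open) and at E11.5 (filled) on a log axis, for called members of 4 lists, apart from genes not reported here. Lines are red for genes that rose and blue for genes that fell, and apart from Mllt3 and Hoxa10 every gene drawn rose.

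Complement, a set of blood proteins and receptors that tag and clear targets, is named in the title of the series. Of 20 tested complement genes 5 rose and none fell, with 17 higher and a median log2 fold change of 1.20. The chains of C1q, which macrophages make, were at 53.8 and 166 FPKM for C1qb and 40.8 and 178 for C1qc, which both rose. C1qa was at 4.68 and 18.3 FPKM and was not called (authors' deposited table, q = 0.373). Among receptors C3ar1, for the fragment C3a, rose from 7.75 to 32.1 FPKM, and Cd93, once taken for a C1q receptor and present on endothelium and progenitors, from 48.9 to 117. C5ar1 was at 6.23 and 13.7 FPKM and was not called. C3 itself, at 0.0211 and 0.486 FPKM, was not tested. C1q chains and C3ar1 are expressed by macrophages, 13 of whose 29 tested markers rose at this age, and the part of such cells in these rises was not tested.

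Antigen presentation and interferon genes were higher at E11.5 while several inflammatory mediators were lower. Of 16 tested MHC class I genes 4 rose, with a median log2 fold change of 1.63. B2m, the invariant chain of class I, rose from 204 to 644 FPKM and H2-K1 from 10.3 to 39.3. The interferon and inflammatory list gave 7 rises and 3 falls among 39 tested. Ifitm1, which interferon induces, rose from 27.6 to 104 FPKM, and the receptors Tnfrsf1b and Il6ra by 3.68-fold and 4.18-fold. The 3 falls were of secreted mediators: Ccl3 fell from 56.8 to 9.37 FPKM, and Ccl4 (3.74 FPKM at E10.5) and Il1b (1.71) were listed at 0 at E11.5. Those 2 calls rest on low levels and a listed 0. In G1 cells Il1b was higher at E11.5, at 0.274 and 2.84 FPKM, without a call. Outside the list, the chemokines Cxcl2 at 2.79 and Cxcl13 at 2.11 FPKM at E10.5 were also called and listed at 0 at E11.5.

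Among other blood lineages, 7 of 20 granulocyte and mast cell genes and 10 of 20 lymphoid genes could be tested. All 22 megakaryocyte and platelet genes were tested. Their counts stand beside the 2.14 percent of all tested genes that rose. Mpo, the peroxidase of granule-forming myeloid progenitors, was the single called gene of 7 tested in the granulocyte and mast cell list, and rose 8.59-fold, from 40.98 to 352 FPKM. Of 10 tested lymphoid genes, Cd7 was listed at 0 at E10.5 and stood at 2.69 FPKM at E11.5, and Il2rg, the shared chain of lymphoid cytokine receptors, rose from 8.43 to 30.1. In the megakaryocyte list 2 of 22 tested rose, among them the chemokine Pf4, from 133 to 318 FPKM. Among genes listed at 0 at E10.5 and called, the highest E11.5 levels were those of Cryba4 (13.3 FPKM), the adaptor Hcst (9.71), the cytotoxic granule protease Gzmb (6.07) and the cadherin Cdh17 (5.63).

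Receptors and signalling proteins of blood cells were also grouped, after their values were seen. Cytokine receptor genes gave 11 rises among 23 tested, with all 23 higher. They include Csf2ra, a chain of the GM-CSF receptor (3.93 to 18.6 FPKM), Il4ra (3.84 to 15.4), Il17ra (11.6 to 49.9) and Il12rb2 (1.27 to 8.49). A group of 10 genes, of class I PI3-kinases and the adaptor Pik3ap1, gave 4 rises, that of Pik3ap1 among them. The leukocyte catalytic subunits Pik3cd and Pik3cg rose from 2.62 to 12.4 and from 3.08 to 17.3 FPKM. The kinases Syk and Lyn rose 3.45-fold and 2.64-fold, and the phosphatases that oppose them, Ptpn6 and Inpp5d, 3.44-fold and 2.87-fold. Of 26 genes of the actin cortex 8 rose and none fell. Among these the leukocyte GTPase Rac2 rose from 17.5 to 76.96 FPKM, Coro1a from 68.5 to 227, and Tmsb4x, which binds actin monomers, from 2292 to 4447, the highest level of any gene called in this comparison. Adhesion genes with rises were Itga4, from 5.22 to 21.1 FPKM, and Itgal, from 2.36 to 11.1, while Itgb8 fell from 3.74 to 0.491. Myc, a driver of growth, rose from 73.5 to 157 FPKM.

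The remaining large rises had mixed roles. The organic cation transporter Slc22a3 rose from 1.44 to 21.5 FPKM (15.02-fold) and Hps6, of the organelle-trafficking complex BLOC-2, from 1.01 to 13.8. Srgn, the proteoglycan core of blood cell granules, rose from 6.82 to 69.4 FPKM and the antiviral deaminase Apobec3 from 3.48 to 30.4. Pkib, an inhibitor of protein kinase A, had the largest fold, 21.99, but its E10.5 level was 0.238 FPKM. With 1 FPKM added at both ages its log2 change was 2.33 in place of 4.46, that of Hps6 was 2.88 in place of 3.77, and that of Slc22a3 was 3.21 in place of 3.91.

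The called genes of mesenchyme all fell. In the mesenchymal list 8 of 32 tested fell, none rose and 31 were lower, with a median log2 fold change of -1.42. Meox1, a somite factor, fell 16.3-fold, from 25.04 to 1.54 FPKM, a log2 change of -4.03 that was -3.36 with 1 FPKM added at both ages. Pdgfra, the receptor that marks mesenchyme and is joined with Mir7025 in the table, fell from 17.005 to 1.89 FPKM, and the limb and trunk factor Prrx1 from 20.2 to 3.74. The secreted growth factors Mdk and Ptn fell from 1002 to 281 FPKM and from 91.2 to 18.8. Structural genes were lower too, with Col3a1 at 23.5 and 10.1 FPKM and Acta2 at 30.97 and 10.99, both called. Outside the list, and named for their 0 alone, Prrx2, Barx1, Tnnc2 and Pcp4 were called and listed at 0 at E11.5. Their E10.5 levels were 13.3, 11.2, 23.98 and 10.6 FPKM. Markers of epithelium, liver and nerve gave no call among 25 tested, and the authors' deposited table gives 6 of them an unadjusted p below 0.05, with a median log2 fold change of -1.18. The summed level of the whole mesenchymal list was 1577 FPKM at E10.5 and 555 at E11.5, of which Mdk alone gave 1002 and 281. The list moved with the falls described next, and its part in them was not tested.

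Hedgehog, Wnt and cell polarity genes were again grouped after their values were seen. Gli2, the main activator of Hedgehog targets, fell 19.8-fold, from 11.4 to 0.574 FPKM. With 1 FPKM added at both ages its log2 change was -2.98 in place of -4.31. Gli3, the receptor Ptch1 and the co-receptors Gas1 and Cdon also fell, so that 5 of 9 tested genes of the pathway were called. Ptch1 fell from 30.7 to 7.89 FPKM and Gli3 from 21.3 to 8.02. Of 10 Frizzled receptors for Wnt proteins 4 fell, among them Fzd7 from 49.7 to 6.63 FPKM and Fzd2 from 22.8 to 5.04. Their secreted antagonists Sfrp1 and Sfrp2 fell from 47.1 to 6.43 FPKM and from 44.2 to 11.7. Of 5 glypicans, heparan sulphate proteins that hold such ligands at the surface, 3 fell as well, with Gpc3 at 100.0 FPKM at E10.5 and 22.1 at E11.5. Of 6 large cadherins of the Fat and Celsr families 4 fell, Celsr1 from 5.94 to 0.678 FPKM. In the list of growth factor, Notch and BMP genes 5 of 37 fell and 2 rose. Bmp7 fell 9.81-fold, from 5.78 to 0.589 FPKM, a log2 change of -3.29 that was -2.09 with 1 FPKM added. The receptors Bmpr1a and Fgfr2 fell from 29.2 to 8.55 and from 20.2 to 2.61. The rises were of Tgfb1, from 39.1 to 120.1 FPKM, and its receptor Tgfbr2, from 12.7 to 37.1.

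Hox genes, which set position along the body axis, were lower at E11.5 in 31 of 32 tested and had a median log2 fold change of -1.74. Of these 6 fell and none rose. Hoxb1 was at 5.33 FPKM at E10.5 and was listed at 0 at E11.5. Hoxc6 fell from 33.1 to 4.63 FPKM, Hoxb9 from 29.1 to 6.14, Hoxc10 from 18.6 to 4.9996 and Hoxc4 from 13.1 to 2.78. The member that was not lower was Hoxd8, at 8.83 and 8.92 FPKM. Hoxa9, which acts in blood progenitors, was at 5.70 and 4.98 FPKM and was not called. Retinoic acid, a vitamin A product that acts on Hox genes in the embryo, is bound in the cytoplasm by the proteins of Crabp1 and Crabp2. Crabp2 fell 9.60-fold, from 224 to 23.3 FPKM, and Crabp1 from 266 to 50.02. Aldh1a2, the enzyme that makes retinoic acid in the trunk, fell from 28.6 to 4.59 FPKM, and the list as a whole gave 3 falls in 13 tested with a median of -0.25.

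Genes that mark embryonic time behaved unevenly. Lin28a, which blocks the maturation of let-7 microRNAs, fell 9.53-fold, from 26.4 to 2.77 FPKM, while its paralogue Lin28b was at 37.9 and 31.8 FPKM and was not called. Trim71, a let-7 target, fell from 27.95 to 11.4 FPKM and Prtg, of the early embryo, from 15.2 to 1.96. The other 11 of 14 tested genes were not called, among them Hmga2 at 294 and 196 FPKM and Igf2bp1 at 63.2 and 45.1. Of 22 tested imprinted growth genes, expressed from 1 parental copy, 5 fell. Peg3 fell from 192 to 61.6 FPKM, and Dlk1, Nnat, Rian and Grb10 fell by 3.35-fold, 2.51-fold, 4.06-fold and 1.96-fold. Igf2 was at 1026 and 1045 FPKM and H19 at 557 and 558, and neither was called.

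Immediate early genes, which cells switch on soon after a stimulus, were lower at E11.5. Of 24 tested 4 fell and none rose. Fos fell 12.3-fold, from 59.04 to 4.81 FPKM, Egr1 from 121 to 28.2, Zfp36 from 159 to 36.5 and Dusp1 from 72.9 to 23.9.

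**Figure D3:**
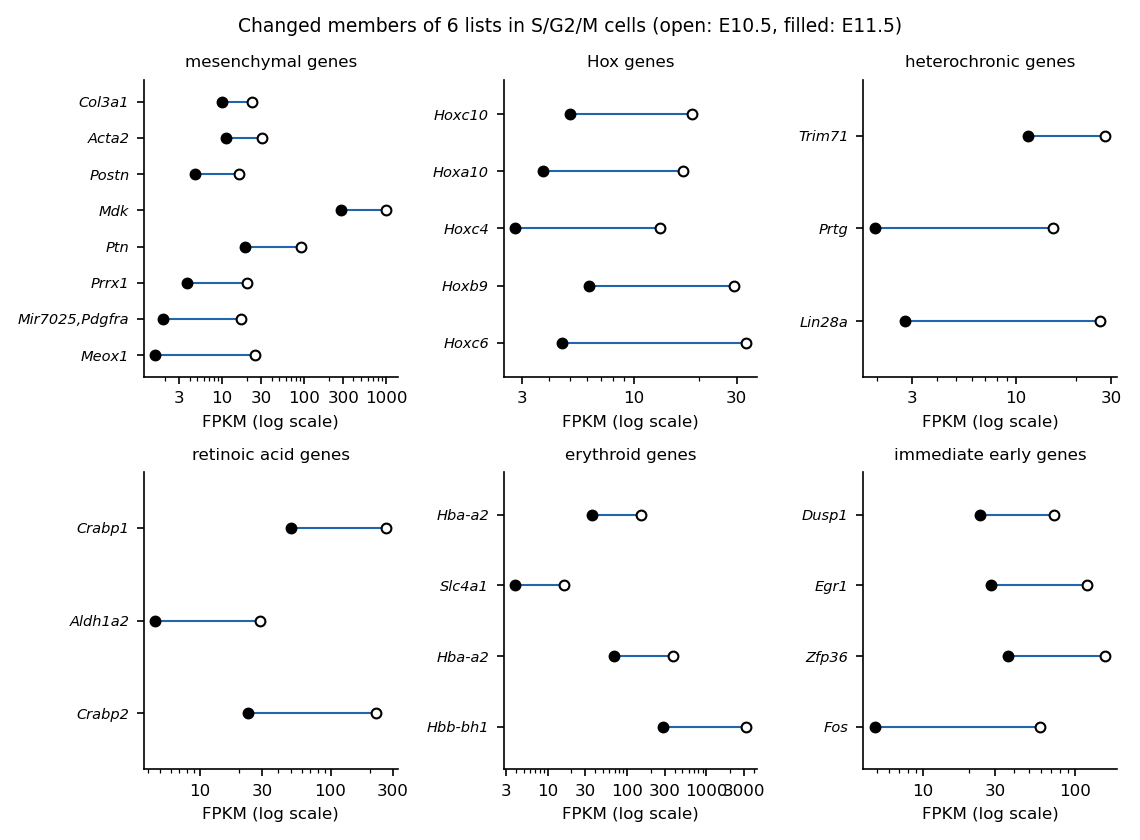
Each line joins a gene's FPKM at E10.5 (open) and at E11.5 (filled) on a log axis, for called members of 6 lists above 0 FPKM at both ages. Every gene drawn fell, and Hba-a2 appears once for each of its gene models.

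Red cell genes were lower in these dividing cells. In the erythroid list 4 of 23 tested gene models fell, none rose and 21 were lower, where 1.93 percent of all tested genes fell. The median log2 fold change was -1.88, and -0.95 with 1 FPKM added at both ages. The embryonic globin Hbb-bh1 fell 10.9-fold, from 3156 to 289 FPKM. Hba-a2, an alpha globin, is listed as 2 gene models that fell from 385 to 69.8 and from 152 to 36.8 FPKM, and reads may be split between near-identical copies. The red cell anion exchanger Slc4a1 fell from 16.3 to 3.89 FPKM. The most abundant embryonic globins were not called, with Hba-x at 10255 and 1761 FPKM and Hbb-y at 5911 and 1137. Their q-values in the authors' deposited table were 0.543 and 0.614, and both log2 changes, -2.54 and -2.38, were larger than the median called fall. The erythroid factor Klf1 was at 5.08 and 2.72 FPKM and was not called. The list summed to 20051 FPKM at E10.5 and 3412 at E11.5.

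Calls among cell cycle genes went both ways, and their counts stand beside the 4.07 percent of all tested genes that changed. Called or not, 30 of 37 S phase genes were lower at E11.5 and 26 of 38 G2 and mitosis genes were higher. Of the 22 G1 regulators, 9 were higher and 13 lower. Of 37 tested genes of S phase and replication, 1 fell, Ung, which removes uracil from DNA, from 93.7 to 42.8 FPKM, and the median log2 fold change was -0.18. Of 38 G2 and mitosis genes, Mki67, the proliferation antigen, rose from 39.2 to 80.9 FPKM and the mitotic cyclin Ccnb2 fell from 140.1 to 62.1, with a median of 0.12. Gmnn, which gives part of its protein to the green reporter, was at 46.03 and 32.7 FPKM and the replication clamp Pcna at 434 and 328, and neither was called. Among 22 tested G1 regulators Cdk6, a kinase of blood progenitors, rose from 25.6 to 59.9 FPKM, and Ccnd2 and Gas1 fell, Ccnd2 from 128 to 59.2.

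Core metabolism gave 1 call. None of 22 glycolysis genes, 31 oxidative phosphorylation genes, 32 ribosomal protein genes or 14 genes of haem and iron handling was called. Counted by unadjusted p below 0.05, the authors' deposited table holds 5, 0, 0 and 5 of them. Abca1, the cholesterol exporter, rose from 5.65 to 16.9 FPKM, the single call among 21 genes of cholesterol synthesis and uptake, whose median log2 fold change was -0.52.

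**Figure D4:**
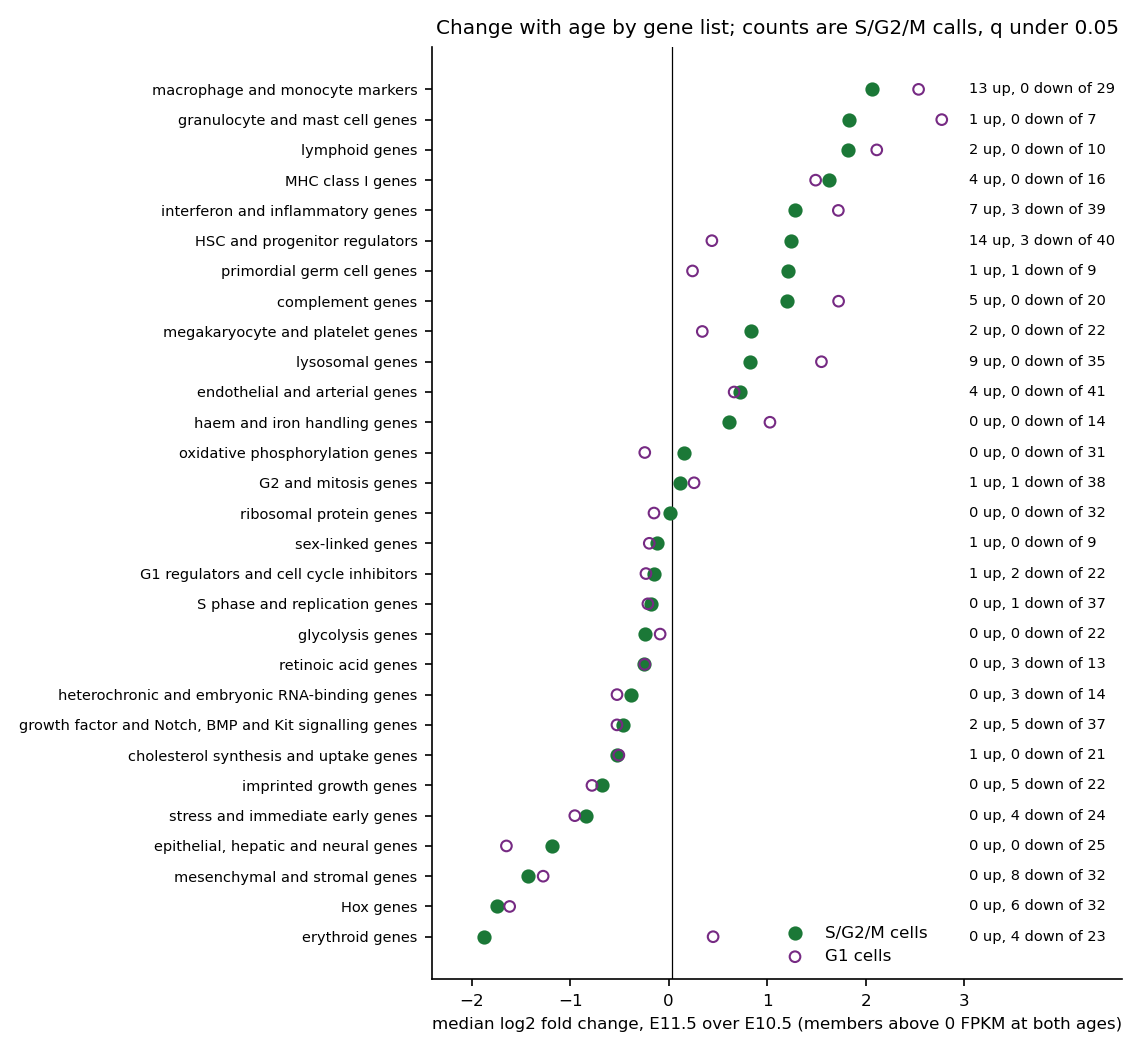
Filled circles give the median log2 fold change from E10.5 to E11.5 of each gene list in S/G2/M cells and open circles the same in G1 cells, with the vertical line at the median of all tested genes in S/G2/M cells, 0.03. In S/G2/M cells macrophage markers lie highest at 2.06 and erythroid genes lowest at -1.88, where the G1 value is 0.45.

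The same age step was tabulated for G1 cells, from samples that the S/G2/M comparison does not use. There 577 of 12953 tested genes were called (4.45 percent), 389 higher (3.0 percent) and 188 lower (1.45 percent) at E11.5. Over 12190 genes tested in both phases, 266 rose in S/G2/M cells and 365 in G1 cells, and 137 rose in both, 51.5 percent of the first set and 37.5 percent of the second. For falls the counts were 229, 165 and 89, or 38.9 and 53.9 percent. Most S/G2/M calls had the same direction in G1 cells, 248 of 256 risen and 194 of 202 fallen genes above 0 in all 4 groups. Across these 458 genes, which are not independent replicates, the log2 fold changes had a Pearson r of 0.88. All were picked for their S/G2/M call, so r spans large rises and large falls, and a shared direction alone makes it high. Neither r nor the share with the same direction was taken over all 12190 genes. A gene called in one phase and not in the other is not shown to differ between them, and no test of that difference could be made from group values.

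Stem and progenitor regulators had a median log2 fold change of 1.24 in S/G2/M cells, with 14 rises, and of 0.44 in G1 cells, with 5 rises and 1 fall among 39 tested. Runx1 and Ikzf1 also rose in G1 cells, by 2.85-fold and 4.17-fold. Myb, Gata2 and Flt3 were higher at E11.5 in G1 cells without a call, Myb by 5.42-fold and Gata2 by 2.44-fold. Other members changed little there. Hlf was at 2.92 and 3.51 FPKM in G1 cells at E10.5 and E11.5, against the 6.11-fold rise in S/G2/M cells. Bcl11a was at 14.7 and 15.5 FPKM in G1 cells and was not called there. Tox, a factor of lymphoid development, rose from 3.38 to 17.7 FPKM in S/G2/M cells and was at 6.79 and 3.62 in G1 cells. The clathrin adaptor Ap1s3 and the ADP-dependent glucokinase Adpgk rose 6.44-fold and 5.98-fold in S/G2/M cells, and in G1 cells they were lower at E11.5, at 5.19 and 1.77 FPKM for Ap1s3 and 8.90 and 7.26 for Adpgk, without a call.

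For macrophage markers the order of the medians was the other way, 2.06 in S/G2/M cells and 2.54 in G1 cells, where 20 of 30 tested rose. Lysosomal genes had 19 of 35 called in G1 cells and a median of 1.55, against 9 and 0.82 here. Erythroid genes had a median of -1.88 in S/G2/M cells and 0.45 in G1 cells, with no call among 22 tested in G1. Hba-a2 was at 319.9 and 447 FPKM for one gene model in G1 cells and at 135 and 209 for the other. Slc4a1 was at 14.4 and 16.0 FPKM in G1 cells. Hbb-bh1 was lower at E11.5 in G1 cells too, at 2295.5 and 997 FPKM, without a call. Hox and mesenchymal genes had medians close to each other in the phases, -1.74 and -1.61 for Hox genes and -1.42 and -1.27 for mesenchymal genes. Hoxa10 was at 2.91 and 3.47 FPKM in G1 cells, where it was not called. Glul, the glutamine synthetase gene, joined with Mir8114 in the table, was the single gene called in opposite directions. It fell from 188 to 72.1 FPKM in S/G2/M cells and rose from 58.5 to 147 in G1 cells.

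**Figure D5:**
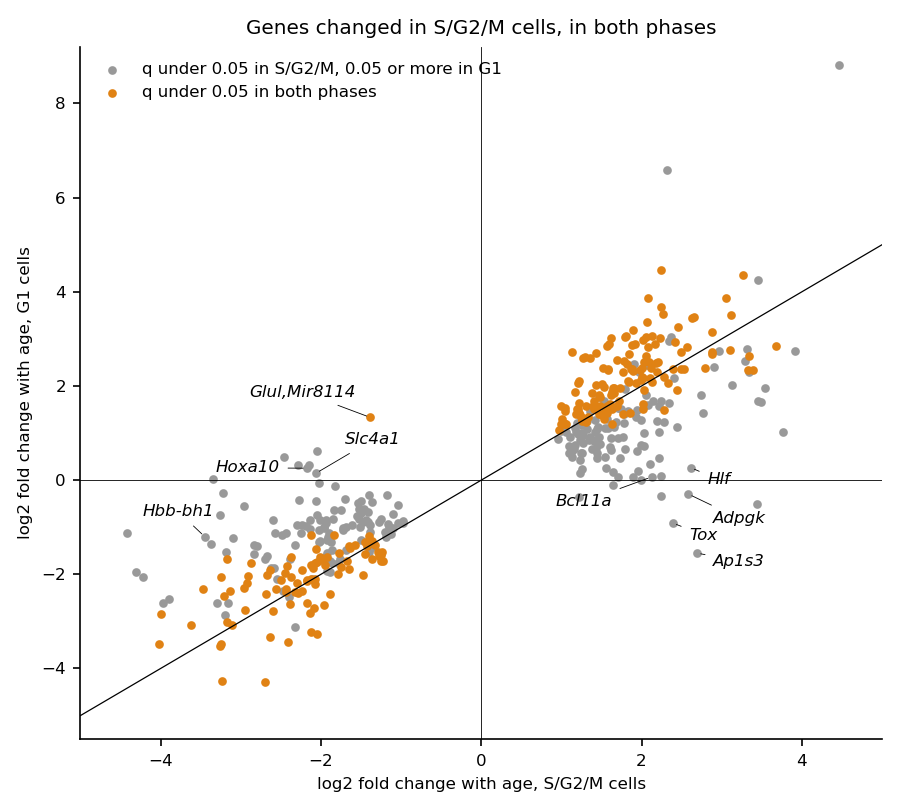
Each of 458 points is a gene called in S/G2/M cells and above 0 FPKM in all 4 groups, with its log2 fold change from E10.5 to E11.5 in S/G2/M cells on the horizontal and in G1 cells on the vertical axis, and a line of equal change. Orange points are also called in G1 cells, and Hlf, Bcl11a and Tox lie near or below 0 on the vertical axis, while Glul,Mir8114 is the orange point in the upper left.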

How the data were processed

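RNA of sorted cells was sequenced by the authors, and gene tables with 1 FPKM value per group, p-values and q-values were deposited. TopHat, Cuffdiff, CASAVA 1.4 and the build mm10 are named per the submitters' processing notes, while the labels' protocols name bowtie 0.12.2 and mm8. The deposited loci fit mm10: of 22413 symbols found in RefSeq GRCm38.p6, 22296 overlapped their locus. Starts are printed with 1 added, which made 11697 of them equal to RefSeq.

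The fold is the E11.5 over the E10.5 FPKM as deposited, with no pseudocount. Calls use the authors' q-values under 0.05. Of 24138 genes 11363 were not tested by the authors and 7 had too many reads. The sources used here do not state whether their test took the 3 samples separately. If they are technical, p-values measure only that spread.

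The members and gene lists were chosen with earlier results of these data known. Gene families and printed promoters were chosen after values were seen. A first set of genes is named by rule. It holds the 15 largest rises and falls of at least 5 FPKM and 4 genes per direction listed at 0. It also holds called list members (or the 2 most abundant), the 6 largest phase differences per direction and a set of marker genes. Other single genes, such as Apoe, Spi1, Myc, Syk and Hoxd8, were picked outside this rule with their values known. A further 26 names were turned into dates by a spreadsheet, 2 of them called, and 218 names join several genes. Scripts ran in Python 3.11.15 with pandas 2.3.3, numpy 2.4.6 and matplotlib 3.10.9, and were tested on simulated data. Alternatives covered the q threshold, size and level filters, a pseudocount, median scaling, and S/G2/M values from the tables that compare phases. A few genes that meet the naming rule are not reported here.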

Additional observations from a re-analysis of the deposited data

How the results depend on the processing

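No paired analysis was possible because the tables hold 1 value per group, and for the same reason leaving out a replicate was not run. With q under 0.01 the counts were 263 genes changed, 128 risen and 135 fallen. With q under 0.085 they were 702, 390 and 312, and with genes listed at 0 left out 459, 256 and 203. The erythroid median was -0.95 with a pseudocount of 1 FPKM, and the other 28 list medians moved by less than 1.5-fold. The ribosomal protein median, 0.02, became -0.062 with each group divided by its median FPKM and -0.053 with values from the phase tables. Under the same 2 settings Atp5b became -0.064 and -0.056, and Rpl32 -0.019 and -0.010. Both are uncalled, and median scaling shifts every log2 fold change by -0.08, so signs this near 0 carry no direction. A pseudocount of 1 FPKM moved 18 of 152 named genes by more than 1.5-fold, all with a low level at one age, and reversed none. Depth and replicate spread are unknown.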

Other observations

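Other genes outside the lists were grouped after their values were seen and are given as levels. The RNA-binding protein gene Msi1 fell from 88.1 to 14.5 FPKM, and the transcription factor genes Sox11 from 91.9 to 35.7, Sox9 from 25.97 to 4.80, and Pou3f2 from 4.47 to 0.240. Tead1 and Tead2, partners of the Hippo effector Yap, fell from 24.03 to 11.7 and from 60.6 to 27.3 FPKM. Axon guidance families gave mixed calls: of 8 tested Eph receptors 2 fell and all 8 were lower, and of 25 semaphorins and plexins 4 fell and 2 rose. The rises were of Sema4d, from 5.57 to 26.95 FPKM, and Plxnc1, from 2.58 to 8.91, both known from immune cells. Neurod4, a neurogenic factor, fell from 12.1 to 1.41 FPKM, while none of 25 tested epithelial, hepatic and neural genes was called in the authors' deposited table, with 6 at an unadjusted p below 0.05. The sum of 4 other neural markers was 48.9 and 42.1 FPKM, and the part of neural cells was not tested.

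Surface proteins changed in both directions. Cd47, which signals to macrophages not to engulf a cell, rose from 17.1 to 82.9 FPKM, and so did its macrophage receptor Sirpa, from 14.9 to 45.1. The adhesion protein Cd44 rose from 15.002 to 39.2 FPKM, Cd33 from 3.11 to 22.96 and Cd53 from 6.11 to 22.001. Cd24a fell from 390.4 to 148 FPKM. The proteasome activator subunits Psme1 and Psme2, which serve antigen presentation, rose from 108 to 254 and from 42.1 to 113 FPKM. Among 9 tested amino acid transporters of the Slc7 family 3 rose and 1 fell. Slc7a5 rose from 26.2 to 66.2 FPKM and Slc7a8 from 3.79 to 19.995.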
